A study of Mus musculus with 4 samples.

Results

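The cathepsins described here were 10 genes taken by symbol, Ctsa, Ctsb, Ctsc, Ctsd, Ctsh, Ctsk, Ctsl, Ctss, Ctsw and Ctsz, of 35798 genes named in the count table. All 10 were listed there, and 9 of them passed the filter on low counts and were tested together with 13822 genes in all. Ctsk was left out by that filter. RNA came from splenic NK cells carrying Ly49H, an activating receptor that binds an MCMV protein, which were sorted at D3.5 of MCMV infection. Of the 4 libraries, 2 held CD45.1 cells of wild-type donors and 2 held CD45.2 cells of TNFR2 KO donors, which lack a receptor for the cytokine TNF. Cells of both genotypes had been placed together in NSG mice, severely immunodeficient hosts that have no T, B or NK cells of their own but keep myeloid cells. Each library was made from pooled spleens of 3 hosts, and, per the sample descriptions, libraries sharing a replicate number came from the same pool. All mice were adults and all hosts were infected, so there were no uninfected libraries. The genotype cannot be told apart from the CD45 allele and the sort gate, which differed in the same way.

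Cathepsins are proteases of lysosomes and of granules derived from lysosomes. Most are cysteine proteases of the papain family (Ctsb, Ctsc, Ctsh, Ctsk, Ctsl, Ctss, Ctsw and Ctsz), whereas Ctsd is an aspartic protease and Ctsa a serine carboxypeptidase. In cytotoxic lymphocytes, cathepsin C removes the short propeptide that keeps granzymes inactive, and cathepsin W is made mainly by NK cells and CD8 T cells. In macrophages and dendritic cells, cathepsins S and L trim the invariant chain that occupies the groove of MHC class II molecules. Many lysosomal genes carry an E-box-like site in their promoter, which is bound by the transcription factor TFEB and its relatives.

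Promoter sequence is shown as description only. With the main scaling between libraries (TMM) some members rose and others fell. With scaling on NK lineage genes all tested members had negative log2-fold changes. RefSeq (GRCm38.p6) windows were at hand for 7 of the 10 genes, Ctsa, Ctsc, Ctsd, Ctsk, Ctsl, Ctss and Ctsz. There was none for Ctsb, Ctsh and Ctsw, so the member that rose most with TMM, Ctsw, is absent here. The 250 bases before each start were searched on both strands for 3 motifs. These were the E-box CACGTG, its extended form TCACGTGA, and GAGGAA, a core of sites for ETS factors such as PU.1. Of 32851 promoter windows of that length, 6.02% held the first, 0.785% the second and 23.3% the third. Matches to CACGTG are given below as 30 bases each, with the match in capitals. They lay at chr2:164833743-164833772 (plus strand) for Ctsa, at chr7:142387908-142387937 and chr7:142388048-142388077 (minus strand) for Ctsd, and at chr13:64370739-64370768 (minus strand) for Ctsl.
Ctsa: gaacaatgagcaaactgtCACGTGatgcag
Ctsd, nearer the start: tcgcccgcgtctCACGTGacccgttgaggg
Ctsd, farther from the start: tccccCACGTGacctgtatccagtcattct
Ctsl: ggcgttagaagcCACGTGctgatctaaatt

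The Ctsa site and the nearer Ctsd site, 12 and 98 bases before the RefSeq start, also matched TCACGTGA. Ctsa had windows at 2 starts, and its match was in the one farther downstream. The Ctsl site lay 236 bases before the start and matched only the shorter motif. These 3 sites lie in bases that GENCODE annotates as untranslated in some transcript. Ctsc and Ctss, which both fell in TNFR2 KO NK cells, had no CACGTG in this window. Their windows held GAGGAA or its complement TTCCTC, shown in capitals below, with 2 matches for Ctsc (chr7:88277835-88278084, plus strand) and 1 for Ctss (chr3:95526536-95526785, plus strand).
Ctsc: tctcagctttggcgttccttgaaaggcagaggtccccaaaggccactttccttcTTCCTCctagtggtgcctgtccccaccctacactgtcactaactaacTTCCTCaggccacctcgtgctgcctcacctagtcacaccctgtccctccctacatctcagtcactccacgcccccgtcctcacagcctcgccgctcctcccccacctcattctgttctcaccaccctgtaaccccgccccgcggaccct
Ctss: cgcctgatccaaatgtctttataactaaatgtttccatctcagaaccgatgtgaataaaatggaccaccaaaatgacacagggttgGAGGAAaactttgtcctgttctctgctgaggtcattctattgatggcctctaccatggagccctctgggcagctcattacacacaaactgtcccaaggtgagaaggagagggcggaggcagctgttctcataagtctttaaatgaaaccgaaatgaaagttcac

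Ctsk, the neighbor of Ctss on chromosome 3, also held 2 GAGGAA matches, and Ctsz held none of the motifs. Both genes with the TCACGTGA match, Ctsa and Ctsd, were higher in TNFR2 KO NK cells with TMM scaling and lower with scaling on NK lineage genes, and Ctsl, with CACGTG alone, fell. Matches are a description of letters and do not show binding.

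The targeted gene, Tnfrsf1b, measured 265 and 268 CPM in wild-type libraries and 55.1 and 58.6 CPM with TNFR2 KO, a log2-fold change of -2.23 (adjusted p = 1.35e-13 with edgeR).

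In TNFR2 KO NK cells, 6 of the 9 tested cathepsins were lower than in wild-type, each by more than 2-fold, and 3 were higher. Ctsb, Ctsc, Ctsh, Ctsl, Ctss and Ctsz fell with an adjusted p under 0.05 and a log2-fold change under -1, the thresholds the study set, as did 11.8% of all genes tested. No cathepsin rose past both thresholds (0 of 9 with edgeR and with DESeq2, against 1.56% of all genes), while all 9 had an unadjusted p under 0.05. Without the fold limit, the same 6 were lower, against 26.2% of all genes. Ctsa, Ctsd and Ctsw were higher, against 24.2% of all genes, and all 3 had negative log2-fold changes when libraries were scaled on 42 NK lineage genes. Ctsa and Ctsd were then called lower, so that 8 of 9 cathepsins were lower and 0 higher at an adjusted p under 0.05. This last scaling moved the all-gene median of the log2-fold changes from -0.003 to -0.84, and it left the distance of each cathepsin from that median almost as it was. The median over the 9 tested cathepsins was -1.33. Macrophage or monocyte markers were lower as well (24 of 28 tested past both thresholds, median -2.90), and their part in these changes was not tested. In bulk RNA, fewer cells of a type and less RNA per cell cannot be told apart. Totals ran from 32713256 to 39543650 counts per library, and 8 of the 9 tested genes rested on at least 227 counts in every library. The exception, Ctsl, had 88.1 counts in TNFR2 KO replicate 2. Leaving out each library in turn kept all 9 calls.

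**Figure D1:**
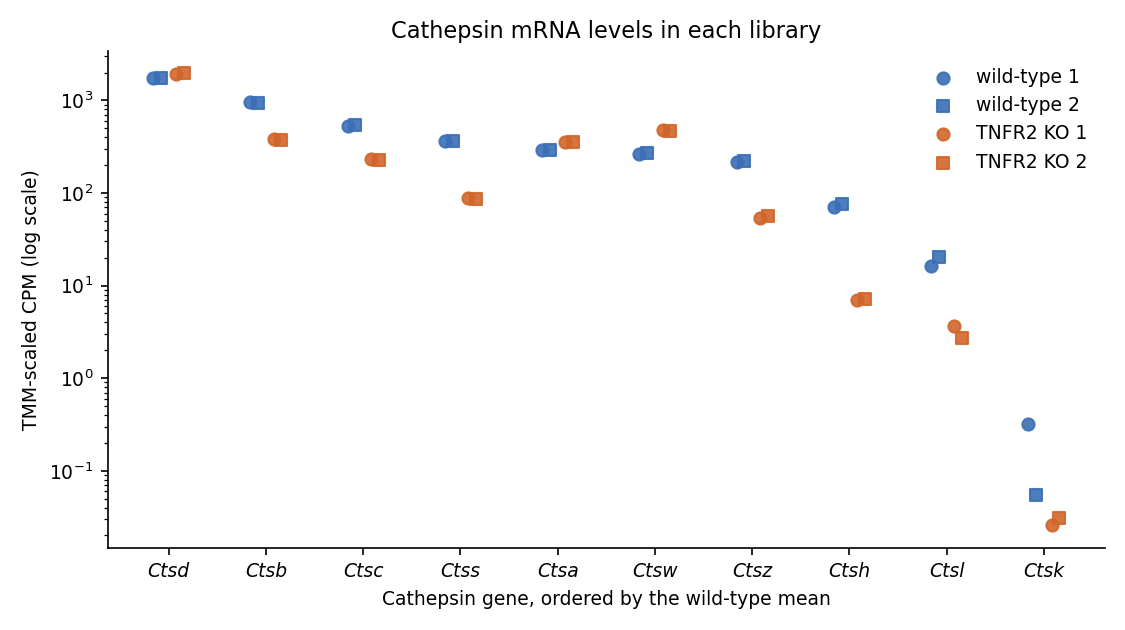
TMM-scaled CPM (log axis) of the 10 cathepsins in each of the 4 libraries, with wild-type in blue and TNFR2 KO in orange, circles for replicate 1 and squares for replicate 2. Duplicates nearly coincide for all genes except Ctsl and Ctsk. Ctsd, Ctsa and Ctsw are higher in TNFR2 KO and the other tested genes lower, while no difference could be judged for Ctsk.

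Ctsw, the cathepsin most restricted to cytotoxic lymphocytes, is at positions 5465043 to 5468507 of chromosome 19 (GRCm38, that is mm10; minus strand). Wild-type libraries measured 267 and 273 CPM (counts relative to TMM-scaled library size) and TNFR2 KO libraries 475 and 473 CPM. Both TNFR2 KO libraries stood above both wild-type libraries, and duplicates differed by at most 2.33% of their mean. On the log2 scale TNFR2 KO exceeded wild-type by 0.81 (standard error 0.0253, adjusted p = 6.35e-11, edgeR), short of the fold threshold. With scaling on NK lineage genes the change was -0.02 (adjusted p = 0.398), so no difference was detected there, which does not show that levels were equal. The NK lineage list itself, which does not hold Ctsw, had 0.84 as its median log2-fold change. Of its 42 genes, 38 were higher at an adjusted p under 0.05, against 24.2% of all genes tested. Ctsw overlaps the oppositely oriented Fibp and shares no 31-base stretch with another gene. Fibp itself stood at 26.5 ± 0.451 CPM (wild-type) and 30.4 ± 0.948 CPM (TNFR2 KO; SD, n = 2 per genotype).

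Ctsc, which encodes the activator of granzymes, moved the other way. It is at positions 88278085 to 88310888 of chromosome 7 (plus strand), with 530.1 and 545 CPM for wild-type but 232 and 226 CPM for TNFR2 KO. The groups were far apart relative to duplicates, which differed by under 3% (2.87% in wild-type and 2.85% in TNFR2 KO). The log2-fold change was -1.23 (standard error 0.0274, adjusted p = 2.37e-12), a 2.35-fold lower mean, and -2.07 with scaling on NK lineage genes. Relative to each other, Ctsc and Ctsw changed in the same libraries in a way that needs no scaling, as their ratio below shows.

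Ctsd, the main aspartic protease of lysosomes, was the most abundant cathepsin in CPM, reaching 1743 and 1766 CPM among wild-type and 1927 and 1959 CPM among TNFR2 KO libraries. The difference was small (log2-fold change 0.15, standard error 0.0203, adjusted p = 6.91e-05 with edgeR), a mean 10.7% higher in TNFR2 KO, but larger than the gap between duplicates. Scaled on NK lineage genes, it was -0.69. Of the 31-base stretches of Ctsd, at positions 142375911 to 142388038 of chromosome 7 (minus strand), 33.2% also occur in other genes, foremost Gm49369, a gene model on the same strand. Gm49369 held between 10.5 and 522 counts per library, against at least 62779 for Ctsd.

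Ctsa, which encodes a carboxypeptidase that also protects lysosomal beta-galactosidase and neuraminidase, measured 294 CPM in both wild-type libraries and 351 and 352 CPM among TNFR2 KO libraries. Duplicates differed by at most 0.217%, and the log2-fold change was 0.26 (standard error 0.0247, adjusted p = 2.58e-06), but -0.58 under NK lineage scaling. Ctsa is at positions 164832873 to 164841032 of chromosome 2 (plus strand) and overlaps Pltp and Neurl2 on the other strand. It shares 14.6% of its 31-base stretches with other genes, mostly Pltp. Pltp rose from 35.5 ± 2.12 to 69.4 ± 1.51 CPM (SD, n = 2 per genotype; log2-fold change 0.97, adjusted p = 9.27e-09 with edgeR). How much of the small change in Ctsa came from shared stretches was not tested.

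Ctss, Ctsl and Ctsh, which are best known from antigen-presenting cells and, for Ctsh, as an aminopeptidase, fell more than Ctsc. Ctss (chromosome 3, plus strand, 95526786 to 95556403) dropped from 363 and 361 CPM to 87.6 and 85.2 CPM, with a log2-fold change of -2.07 (adjusted p = 5.37e-14, standard error 0.0293). Ctsh (chromosome 9, plus strand, 90054152 to 90076089) went from 71.4 and 75.5 CPM to 6.93 and 7.08 CPM. This was the steepest change among the 9 tested members, 10.5-fold lower, with a log2-fold change of -3.39 (adjusted p = 5.17e-13, standard error 0.0630). Ctsl (chromosome 13, minus strand, 64359337 to 64370890) was low throughout, at 16.3 and 20.2 CPM for wild-type but 3.70 and 2.75 CPM for TNFR2 KO. Its duplicates differed by 21.5% and 29.5% of their means, the most of any tested member, yet the groups did not overlap. The log2-fold change of Ctsl was -2.49 with a wide 95% interval from -2.82 to -2.15 (adjusted p = 4.04e-08), and it ranged from -2.72 to -2.30 with each library left out. An antisense gene, Gm47123, and other genes hold 28.2% of the 31-base stretches of Ctsl, so its count is less certain.

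Ctsb and Ctsz are carboxypeptidases of the same papain family, and cathepsin B also cuts within proteins. Ctsb (chromosome 14, plus strand, 63122462 to 63145923) went from 952 and 946 CPM to 378 CPM in each TNFR2 KO library. Its log2-fold change was -1.33 (standard error 0.0231, adjusted p = 2.99e-13). It overlaps Fdft1 on the other strand and shares 13.0% of its 31-base stretches with other genes, Fdft1 foremost. Fdft1 showed 39.3 ± 0.594 (wild-type) and 38.6 ± 1.16 CPM (TNFR2 KO; SD, n = 2 per genotype) with no call between genotypes (log2-fold change -0.03). Ctsz (chromosome 2, minus strand, 174427493 to 174439039) dropped from 218 and 220.4 CPM to 53.1 and 56.6 CPM, with a log2-fold change of -2.0004 (adjusted p = 4.60e-13, standard error 0.0366). The 95% intervals of Ctss and Ctsz overlapped, at -2.13 to -2.003 and -2.08 to -1.92. The intervals of Ctsb (-1.38 to -1.28) and Ctsc (-1.29 to -1.17) also overlapped.

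Ctsk, the collagen-degrading cathepsin of osteoclasts, was near the limit of detection, with 12 and 2 counts in the wild-type libraries and 1 count in each TNFR2 KO library. Exact Poisson 95% intervals were 6.20 to 20.96 and 0.242 to 7.22 for the wild-type counts and 0.0253 to 5.57 for a count of 1. They cover counting error only. At this depth no difference in Ctsk could be judged, since 1 wild-type library held most of its counts. Of the osteoclast markers, Calcr and Dcstamp were at 0 in all 4 libraries and Ocstamp was at 0.548 to 1.72 CPM.

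**Figure D2:**
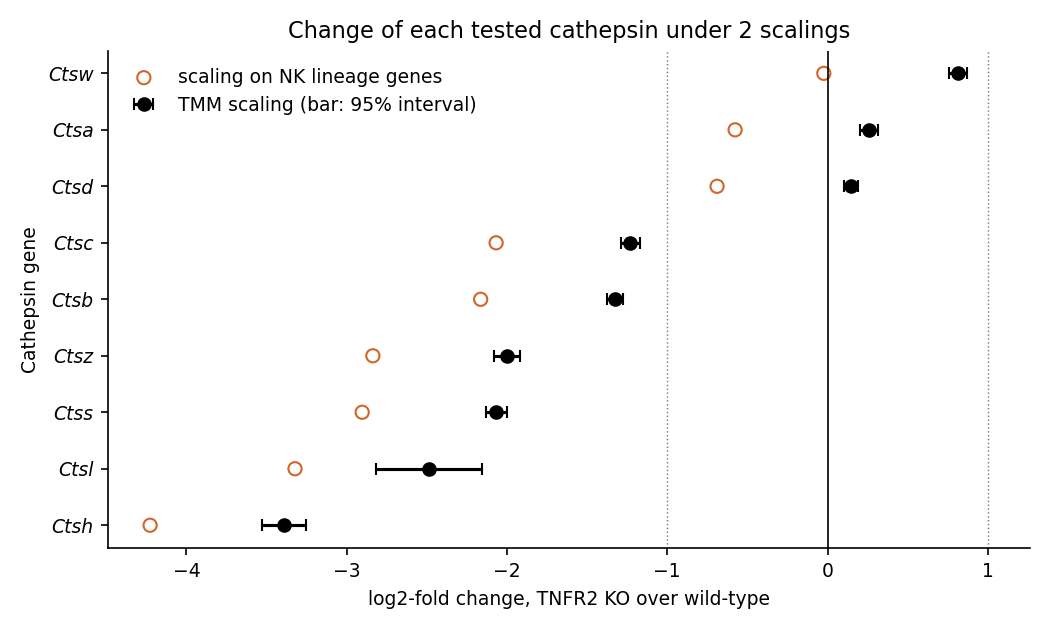
Log2-fold change (TNFR2 KO over wild-type) of the 9 tested cathepsins. Filled points with 95% intervals use TMM scaling and open points use scaling on NK lineage genes, and dotted lines mark -1 and 1. From Ctsc downwards all points lie below -1 under both scalings, whereas Ctsw, Ctsa and Ctsd are above 0 only with TMM.

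Together the 10 genes took 4455 and 4501 CPM in wild-type and 3515 and 3538 CPM in TNFR2 KO, or 0.448% and 0.353% of scaled counts on average. With TMM scaling, the make-up of this total changed more than its size. The size depends on the scaling. Scaling on NK lineage genes, which moved the all-gene median to -0.84, would lower the TNFR2 KO total further. Ctsd rose from 39.2% ± 0.0714 to 55.1% ± 0.377 of cathepsin CPM, Ctsw from 6.02% ± 0.0552 to 13.4% ± 0.106, and Ctsa from 6.56% ± 0.0441 to 9.97% ± 0.0316 (SD, n = 2 per genotype). Ctsb went from 21.2% to 10.7%, Ctsc from 12.01% to 6.49%, Ctss from 8.09% to 2.45% and Ctsz from 4.89% to 1.56%. These shares are free of the scaling between libraries.

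**Figure D3:**
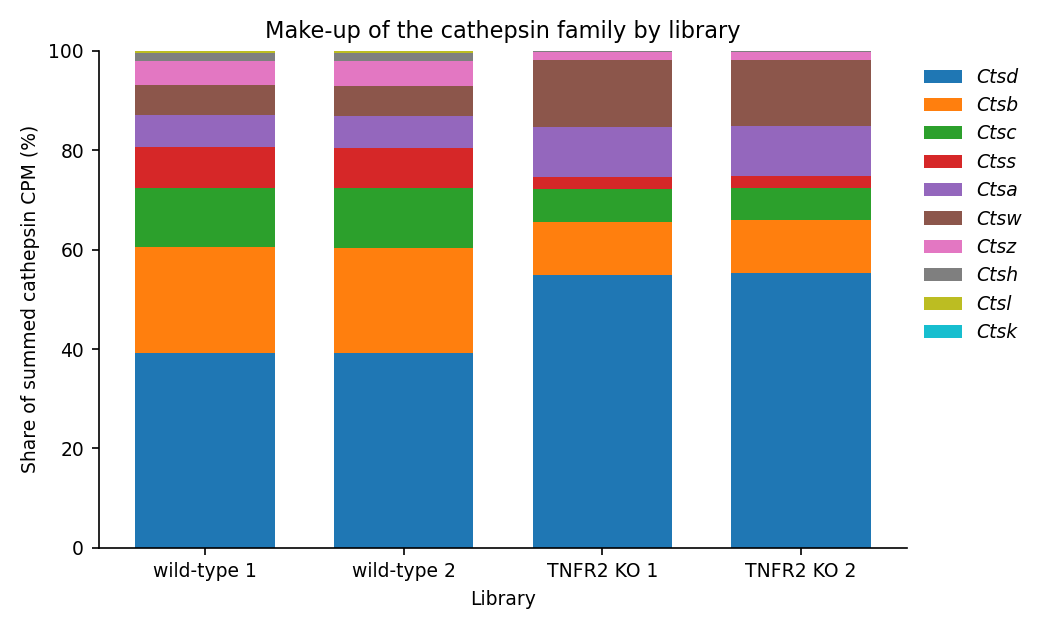
Share of each cathepsin in the summed cathepsin CPM (%, stacked to 100) in each library. The 2 libraries of a genotype look alike, and Ctsd and Ctsw take 55.1% and 13.4% in TNFR2 KO against 39.2% and 6.02% in wild-type.

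Levels of different genes were compared per kilobase of the main GENCODE transcript. In wild-type the order was Ctsd (825 CPM per kb), Ctss (267), Ctsw (217), Ctsc (216), Ctsb (200.04), Ctsz (152), Ctsa (80.6), Ctsh (45.4), Ctsl (9.24) and Ctsk (0.123). Ctsw and Ctsc were not apart beyond their spread (SD of 3.58 and 4.37 CPM per kb). In TNFR2 KO the order was Ctsd (913 CPM per kb), Ctsw (382), Ctsa (96.4), Ctsc (91.8), Ctsb (79.7), Ctss (63.7), Ctsz (38.1), Ctsh (4.33), Ctsl (1.63) and Ctsk (0.0188). Ctsw thus moved up to rank 2 and Ctss moved down from rank 2 to rank 6. With coding length in place of transcript length, Ctsd kept rank 1, Ctsw moved from rank 5 to rank 2, and Ctsh, Ctsl and Ctsk stayed last. The order of those between depended on the length used.

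Ratios of counts within a library need no scaling, and the pairs given here were picked after the values had been seen. The ratio of Ctsc to Ctsw was 1.99 and 1.999 in the wild-type libraries and 0.489 and 0.478 in the TNFR2 KO libraries (means 4.13-fold apart). The ratio of Ctss to Ctsw went from 1.36 and 1.32 to 0.184 and 0.180, and that of Ctsb to Ctsd from 0.546 and 0.535 to 0.196 and 0.193. Against granzyme A and granzyme B, substrates of its product, Ctsc also went down. There were 0.0909 and 0.0944 counts of Ctsc per count of Gzma in wild-type and 0.0188 and 0.0186 in TNFR2 KO, and 0.136 and 0.141 per count of Gzmb against 0.0353 and 0.0348. In each of these pairs the gap between genotypes was many times the gap between duplicates.

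**Figure D4:**
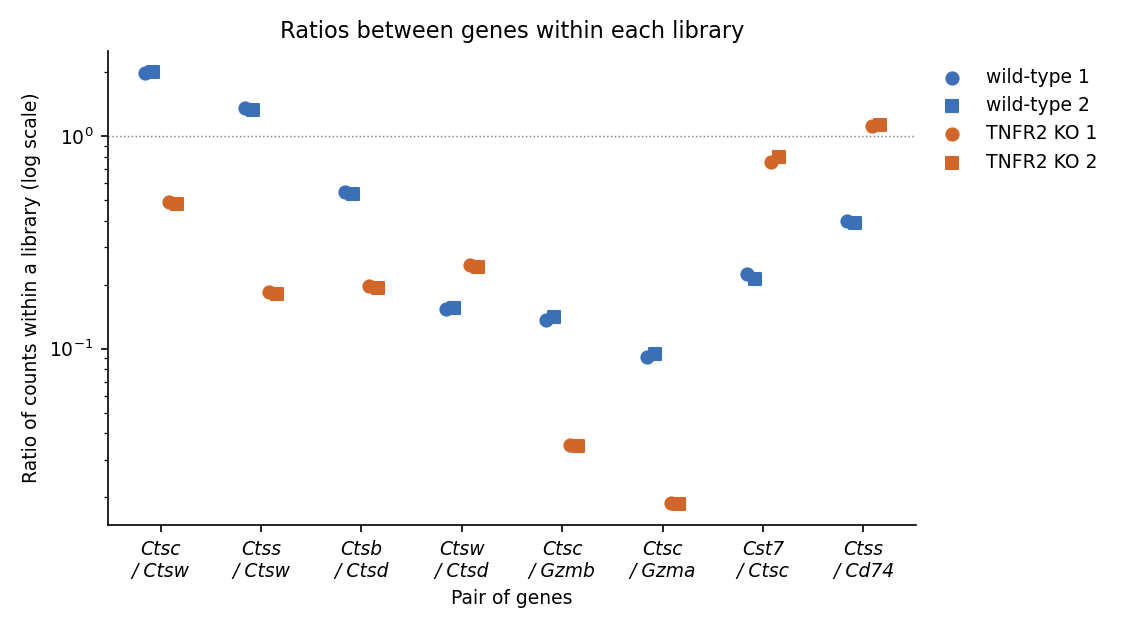
Ratio of counts of 2 genes within a library (log axis), wild-type in blue and TNFR2 KO in orange, circles for replicate 1 and squares for replicate 2. The ratio of Ctsc to Ctsw lies at 1.99 to 1.999 in wild-type and at 0.478 to 0.489 in TNFR2 KO, and the ratios of Cst7 to Ctsc and Ctss to Cd74 move up.

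Of 16 genes listed as other cathepsins or placed beside them, 8 had a count and 5 could be tested. Ctsg, a serine protease of neutrophil granules, fell from 86.6 and 91.2 CPM to 1.32 and 1.25 CPM (log2-fold change -6.11, adjusted p = 3.49e-14). Ctse, an aspartic protease of endosomes, fell from 264 and 263 CPM to 45.3 and 46.3 CPM (log2-fold change -2.53, adjusted p = 2.48e-14). Dpp7, a dipeptidyl peptidase that is not itself a cathepsin, fell from 9.86 and 11.7 to 4.75 and 4.96 CPM. Ctso was slightly higher (log2-fold change 0.16, adjusted p = 0.0364), and the log2-fold change became -0.68 under NK lineage scaling. Its call was lost with DESeq2 (adjusted p = 0.169), library size alone (0.182), a filter at a mean of 10 CPM (0.0880), and without wild-type replicate 2 (0.133) or TNFR2 KO replicate 1 (0.201). Tinagl1, under 1 CPM, was not called.

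Among 26 inhibitors of cathepsins or related serine proteases, 10 could be tested, with 4 lower and 5 higher at an adjusted p under 0.05 (3 and 0 past both thresholds). The shares of all genes tested were 26.2% and 24.2% (11.8% and 1.56% past both thresholds). Cst7 encodes cystatin F, an inhibitor that acts on cathepsin C in cytotoxic cells. Its level went from 119 and 116 CPM to 177 and 180.1 CPM, by 0.60 on the log2 scale. With Ctsc falling, the ratio of Cst7 to Ctsc within a library went from 0.225 and 0.212 to 0.760 and 0.798. Serpinb6b (0.71), Serpinb6a (0.34), Ctla2a (0.23) and Ctla2b (0.88) also had higher log2 levels, the last 2 encoding proteins that resemble the propeptide of cysteine cathepsins. All of these except Ctla2b turned lower with scaling on NK lineage genes, Cst7 to -0.23. Cst3 (cystatin C) and Cstb (stefin B) fell, with log2-fold changes of -1.20 and -0.85. Serpinb1a, an inhibitor of neutrophil proteases, had a log2-fold change of -2.41, and Stfa2l1, under 2 CPM, one of -1.36. Without wild-type replicate 2, Stfa2l1 was not called (log2-fold change -1.22, adjusted p = 0.0582 with edgeR), which left 2 inhibitors lower past both thresholds. Cst6 was not called, and 6 further stefin and serpin genes held too few counts to be tested.

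Of 19 tested genes that tag, carry or mature lysosomal enzymes, 6 were lower and 7 higher at an adjusted p under 0.05 (26.2% and 24.2% of all genes tested), with a median log2-fold change of -0.005. M6pr, the small mannose-6-phosphate receptor and the most abundant of them, stood at 401 and 409.6 CPM (wild-type) and 391 and 396 CPM (TNFR2 KO) and was not called. Igf2r, the large receptor for the same tag, went from 184 and 186 CPM to 297 and 304 CPM (log2-fold change 0.70, but -0.14 under NK lineage scaling). Lgmn, a protease that cuts several cathepsins to their mature forms, had a log2-fold change of -2.80, and Sort1, another carrier, one of -3.04. Both of the latter were named after their values had been seen.

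Lists of other lysosomal genes had medians nearer to 0 than the cathepsins. Of 47 tested hydrolases and activators, 12 were lower past both thresholds and 0 were higher, with a median log2-fold change of -0.20 (24 lower and 11 higher without the fold limit). Psap, which encodes activators of sphingolipid breakdown, fell from 1950 and 1955 CPM to 592 and 595 CPM (log2-fold change -1.72), Arsb had a log2-fold change of 0.36, and Npc2 was not called at -0.03. Of 26 lysosomal membrane genes, 8 were lower past both thresholds (median -0.19), among them Lamp1 at -1.29, and Laptm5, the most abundant, was at 0.33. Of 19 tested subunits of the proton pump, 2 were lower past both thresholds, with a median of -0.19, as were 3 of 19 lysosome regulators. Both counts are near the 11.8% of all genes tested. Without the fold limit, 11 pump subunits were lower and 4 higher, against 26.2% and 24.2% of all genes tested. At that limit 12 membrane genes were lower and 8 higher, and 5 regulators were lower and 4 higher. Tfeb itself was not called (log2-fold change 0.05), whereas its relatives Mitf and Tfec stood at -3.64 and -3.23 and Tfe3 at -0.75, these 4 being named after their values had been seen. All genes tested had a median of -0.003. Arsb and Laptm5 turned lower with scaling on NK lineage genes.

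**Figure D5:**
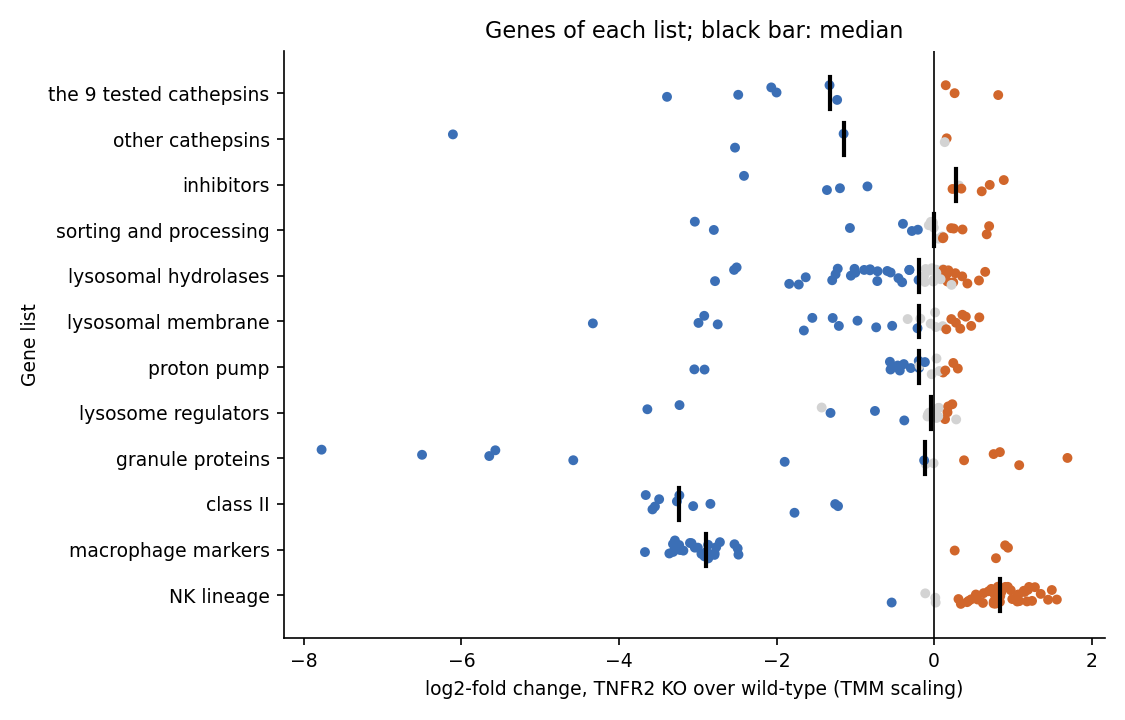
Log2-fold change (TNFR2 KO over wild-type, TMM scaling) for the tested genes of each list. Blue is lower and orange higher at an adjusted p under 0.05, grey is not called, and the black bar is the median. The cathepsins spread from -3.39 to 0.81 with a median of -1.33, while the macrophage markers have a median of -2.90 and the NK lineage genes one of 0.84.

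Of 14 tested granule genes, mostly proteases that cathepsin C can activate, 7 were lower and 5 higher at an adjusted p under 0.05. Of all genes tested, 26.2% and 24.2% were. Past both thresholds, 6 granule genes were lower and 2 higher, against 11.8% and 1.56% of all genes tested. The granzymes Gzma and Gzmb were higher, with Gzma going from 5829 and 5776 CPM to 12381 and 12135 CPM, and Gzmb from 3892 and 3858 CPM to 6587 and 6488 CPM. With scaling on NK lineage genes, a list that holds both granzymes, Gzmb turned to -0.08 on the log2 scale. Elane, Prtn3 and Mcpt8, granule proteases of neutrophils and basophils that are also activated by cathepsin C, had log2-fold changes of -7.77, -5.65 and -5.57. They were named after their values had been seen, and the highest log2-fold change in the granule list was 1.69. All 11 tested class II genes were lower past both thresholds, with a median of -3.23. Cd74, the invariant chain trimmed by cathepsin S, fell from 906 and 925 CPM to 78.3 and 75.2 CPM, more than Ctss did, so that the ratio of Ctss to Cd74 rose from 0.401 and 0.390 to 1.12 and 1.13.

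Markers of several other cell types were mostly lower past both thresholds in TNFR2 KO, but those of others were not. Of 28 tested macrophage or monocyte markers, 24 were lower past both thresholds and 4 were higher. The 4 were Itgam, Ccr2, Cx3cr1 and Ly6c2, which NK cells can also express, and their summed level with the rest was 3943 to 3990 CPM for wild-type and 2136 to 2153 CPM for TNFR2 KO. Defining markers were present in every library, with Csf1r at 254 and 255 CPM (wild-type) and 27.4 and 26.6 CPM (TNFR2 KO), and Lyz2 at 771 and 777 against 114 and 110.3 CPM. The quartiles of the list were -3.19 and -2.67. None of the 9 cathepsins fell inside them, as Ctsh (-3.39) lay below and the other 8 lay nearer to 0 (0 inside, 1 below, 8 above). Quartiles of other lists did hold members. Those of neutrophil or precursor markers (-2.65 and -1.75) held Ctsl, Ctss and Ctsz, and those of NK lineage genes (0.57 and 1.12) held Ctsw. Those of class II genes (-3.52 and -2.31) held Ctsh and Ctsl. Dendritic cell quartiles (-2.66 and -0.26) held Ctsb, Ctsc, Ctsl, Ctss and Ctsz, and erythroid ones (-2.35 and -0.999) Ctsb, Ctsc, Ctss and Ctsz. Platelet quartiles (-3.52 and -2.27) held Ctsh and Ctsl, and mast cell or basophil ones (-5.53 and -2.85) Ctsh. Stromal quartiles (-1.68 and 0.06) held Ctsb and Ctsc, and B cell ones (-1.26 and -0.16) Ctsc. Several members thus lay inside the quartiles of multiple lists. Which cells the RNA of each cathepsin came from was not tested. Neutrophil or precursor markers were lower past both thresholds in 17 of 18 cases (summed level 1120 to 1133 against 131 to 134 CPM), and mast cell or basophil markers in 9 of 11 (1277 to 1281 against 103 to 104 CPM). Of the mast cell or basophil markers, 1 was higher past both thresholds, with a log2-fold change of 1.69. Dendritic cell markers were lower past both thresholds in 6 of 14 cases, with Flt3, Xcr1 and Siglech under 1 CPM in all libraries, and their summed level of 942 to 947 against 1536 to 1572 CPM was mostly Itgax and Irf8. Erythroid (8 of 11), platelet (9 of 10), stromal (3 of 6), B cell (1 of 3) and osteoclast (3 of 6) lists also had genes lower past both thresholds. The share among all genes tested was 11.8%. Summed levels of the stromal, B cell and osteoclast lists were higher in TNFR2 KO, at 1.20, 1.17 and 1.09 times wild-type. T cell markers had 0 of 12 lower past both thresholds. Without the fold limit, 7 of them were lower and 2 higher, against 26.2% and 24.2% of all genes tested. Cd3e was at 119 and 120.25 CPM (wild-type) against 99.05 and 101 CPM (TNFR2 KO). The sorted cells carried their defining NK genes, with Ncr1 at 258 and 255 CPM (wild-type) and 511 and 510.3 CPM (TNFR2 KO), and Klra8, the gene for Ly49H, at 313 and 316 against 762 and 725 CPM.

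Genes nearest in pattern were found by the distance between centered log2 CPM values over the 4 libraries, among 8761 other genes whose mean reached 10 CPM. They were H2-DMa, Fth1 and Emb for Ctsc (distances 0.0141 to 0.0333), Wscd2, Chd9 and Atp1b1 for Ctsw (0.0105 to 0.0209), and Marcksl1, Gpr141 and Ms4a4c for Ctss (0.0359 to 0.0611). Fth1, the heavy chain of the iron store ferritin, went from 956 and 976 CPM to 417 and 409 CPM. Log2-fold changes of the neighbors ran from -1.23 to -1.22 for Ctsc, from 0.80 to 0.81 for Ctsw and from -2.11 to -2.01 for Ctss. Their closeness to the member's own change follows from how neighbors were picked and is not a separate result.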

How the data were processed

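RNA was sequenced from 4 libraries of sorted Ly49H+ NK cells, 2 per genotype. The authors trimmed stranded, paired-end poly-A reads with Trimmomatic (1.4) and assigned them to mm10 transcripts with kallisto (0.46.1), per the labels, and Tximport gave gene-level values. The authors deposited estimated counts (expected counts) per gene symbol, unscaled. The annotation and strand setting used for counting are not given in the sources used here, so reads of overlapping genes on opposite strands may not be told apart.

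Counts were rounded, filtered with filterByExpr, scaled with TMM and tested with edgeR 4.0.16 in R 4.3.3 (quasi-likelihood test, genotype as the only term, Benjamini-Hochberg adjustment over 13822 genes). Standard errors are the absolute log2-fold change divided by the square root of the F statistic. A row with no gene name (0.0559% to 0.0728% of counts) was left out. No source says that replicates 1 and 2 came from different mice, so p-values measure only the spread between these samples, which may be technical. The mean chi-square per gene between duplicates was 3.29 in wild-type and 3.49 in TNFR2 KO, where 1 is sampling noise. A few genes can raise such a mean, and its spread over genes was not examined, so it may not describe most genes. The common biological coefficient of variation was 3.33%. Scripts were tested on simulated data.

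Replicate numbers pair the libraries, since the sample descriptions name a spleen pool shared by same-numbered libraries (their deviations from the group means barely correlated, at 0.0483). The paper describes 1 experiment in duplicate, with samples taken from pooled spleens of 3 infected mice, so replicates 1 and 2 may share a pool. The replicate block was an alternative, as were DESeq2 1.42.0, 4 other scalings, 2 other filters and each library left out. Members and lists were chosen with earlier results of these data known. Named genes are the members, Tnfrsf1b, tested genes of the other cathepsin and inhibitor lists, the 3 most abundant and the defining genes of each list, and pattern neighbors. Lgmn, Sort1, Tfeb, Mitf, Tfec, Tfe3, Elane, Prtn3, Mcpt8, Cx3cr1, Ly6c2 and genes overlapping members were added after their values were seen. Positions, lengths and shared 31-base stretches come from GENCODE M21 (GRCm38), promoters from RefSeq. Plots used matplotlib 3.10.9 under Python 3.11.15.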

Additional observations from a re-analysis of the deposited data

Results flagged for a closer look

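Counts on the row with no gene name, which enters no comparison, took 0.0716% and 0.0728% of the TNFR2 KO libraries, above the 0.0559% and 0.0561% of the wild-type libraries.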

How the results depend on the processing

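Across 12 alternatives, 105 of the 108 fold changes of the 9 tested cathepsins kept their direction and their side of the adjusted p threshold. The other 3 came with scaling on NK lineage genes, where Ctsa, Ctsd and Ctsw turned to -0.58, -0.69 and -0.0236 and no cathepsin was higher (0) and 8 were lower at the adjusted p threshold. This scaling also gave 6 sorting genes, 24 hydrolases, 14 membrane genes, 11 proton pump subunits and 6 lysosome regulators lower past both thresholds, and a filter at a mean of 10 CPM left 1 pump subunit and 1 regulator. NK scaling reversed Ctso (-0.68), Tinagl1 (-0.70), Serpinb6b (-0.13), Cst7 (-0.23), Cst6 (-0.51), Ctla2a (-0.60), Serpinb6a (-0.49), Gnptab (-0.48), Igf2r (-0.14), Arsb (-0.48), Laptm5 (-0.51), Abca2 (-0.37), Atp6v0a2 (-0.54), Lamtor3 (-0.67), Gzmb (-0.0817), Prf1 (-0.00215), Ccr2 (-0.0518), Il2rb (-0.40), Eomes (-0.15) and Klrk1 (-0.0280). With each library left out, Tinagl1 ranged from -0.0867 (without TNFR2 KO replicate 2) to 0.358 and Rragc from -0.122 to 0.0162 (without wild-type replicate 1); neither was called. By construction, scaling on NK lineage genes shifts every gene. Gzmb, Prf1, Il2rb, Eomes and Klrk1 belong to the list that set it, so the values of that list center near 0 whatever the data.

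The pairing by replicate number, fitted as a replicate block, changed no call among the cathepsins (Ctsw 0.81, Ctsc -1.23, Ctss -2.07) and left 6 lower. Genes lower past both thresholds numbered 1627 with TMM and edgeR, 4266 with NK scaling and 424 with the 10 CPM filter, and those higher 215, 28 and 56. Depth limits Ctsk, and Ctsl in TNFR2 KO.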
